A study of Mus musculus with 194 samples.

Results

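The loci of 7 basic helix-loop-helix (bHLH) transcription factor genes with known roles in neurons, Neurod1, Neurod2, Neurod6, Neurog2, Bhlhe22, Bhlhe40 and Tcf4, were described by their transposon insertions across all groups of a calling card study of the mouse brain. A locus was the gene body with 10 kb on each side, and the 7 loci were counted among 21631 protein-coding loci. In calling cards a transposase works alone or joined to a factor that binds DNA, and it writes a transposon into TTAA sites close to its place on the genome, so the number of insertions at a locus records past occupancy and not RNA. The level of a locus is given as insertions per 1000000 insertions of the same table (IPM).

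The data comprised 47 tables, which are 46 animals in 11 groups and 1 combined table of N2a, a mouse neuroblastoma cell line. All animals received adeno-associated virus (AAV) on postnatal day 0 to 1. C57bl6J animals (n = 2) got Cre-independent viruses. The Syn1Cre group (n = 6) and the GFAPCre group (n = 6) are named after Cre lines used for neurons and for astrocytes, and each has a Cre-negative group, Syn1CreNeg (n = 6) and GFAPCreNeg (n = 6). Frontflip_GFAPCre (n = 3) and Frontflip_GFAPCreNeg (n = 3) carry a further construct, Frontflip, which the labels do not describe. SP1_P28 (n = 4) and SP1_P10 (n = 3) are Syn1Cre animals with SP1, taken at postnatal day 28 and day 10. SP1 is a zinc finger factor that binds GC-rich promoter elements, and its construct is not described either. Rbp4Cre_TRAP (n = 4) came from whole forebrain by TRAP, usually read as translating ribosome affinity purification, in a Cre line used for deep-layer cortical projection neurons. All of these used the self-reporting transposon (SRT), whose insertions are read from RNA, with each cortex cut into 10 pieces that were indexed apart (Rbp4Cre_TRAP excepted). BrokenHeart (n = 3) read barcoded insertions from cortical DNA by inverse PCR. The sources used here give no age for groups other than SP1, and they name neither the transposase nor the cells each Cre line recombined in these animals.

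Depth differed widely. The tables held 443158 to 1364948 insertions in Syn1Cre, 600443 to 1505413 in GFAPCre, 97519 to 597230 in the Cre-negative groups, 86842 to 577609 in the SP1 groups, 1545951 and 2186743 in C57bl6J, 42511 to 98197 in BrokenHeart, 24408 to 57014 in Rbp4Cre_TRAP, 160631 to 205559 in Frontflip_GFAPCre, 2341 to 9601 in Frontflip_GFAPCreNeg and 806653 in N2a. The insertion level at marker loci followed the labels only in part. The summed level of 6 GABAergic markers was 496 to 652 IPM in Syn1Cre and 97.6 to 146 in GFAPCre. The summed level of 5 astrocyte markers was 705 to 1444 in GFAPCre, which overlapped 529 to 1731 in Syn1Cre, and reached 1818 to 2410 in Syn1CreNeg. The 5 glutamatergic markers stood at 941 to 1280 in GFAPCre. By labels that name the libraries pooled in a GEO sample, no pool held Syn1Cre animals together with GFAPCre, Syn1CreNeg or SP1 animals, and the effect of the pool cannot be told apart from that of the group there.

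bHLH proteins bind DNA as dimers at the E-box, CANNTG. Tcf4 encodes an E protein, a broadly expressed partner with which tissue-specific bHLH factors pair. Neurog2 is a proneural gene of dividing cortical progenitors, and Neurod1, Neurod2 and Neurod6 act after it in newborn and maturing glutamatergic neurons. Bhlhe22 encodes a repressor of postmitotic cortical and spinal neurons, and Bhlhe40 a repressor that responds to light, hypoxia and activity and takes part in circadian rhythm.

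Promoter sequence is shown for the 3 Neurod genes because SP1 is known to bind GC-rich elements and an insertion needs a TTAA. Whether these letters bear on the SP1 comparison was not tested. Each stretch is the 250 bases before the transcription start, 5′ to 3′ on the strand of the gene, from RefSeq for GRCm38.p6. Capitals mark GGGCGG, or CCGCCC where it lies on the other strand, and TTAA. The windows are chr2:79456637-79456886 (minus strand) for Neurod1, chr11:98329646-98329895 (minus strand) for Neurod2 and chr6:55681264-55681513 (minus strand) for Neurod6.
Neurod1: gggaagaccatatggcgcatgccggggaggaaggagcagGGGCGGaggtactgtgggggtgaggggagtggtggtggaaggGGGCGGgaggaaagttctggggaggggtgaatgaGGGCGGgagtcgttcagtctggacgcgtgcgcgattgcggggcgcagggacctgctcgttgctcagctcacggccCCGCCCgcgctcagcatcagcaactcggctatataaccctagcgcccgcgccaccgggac
Neurod2: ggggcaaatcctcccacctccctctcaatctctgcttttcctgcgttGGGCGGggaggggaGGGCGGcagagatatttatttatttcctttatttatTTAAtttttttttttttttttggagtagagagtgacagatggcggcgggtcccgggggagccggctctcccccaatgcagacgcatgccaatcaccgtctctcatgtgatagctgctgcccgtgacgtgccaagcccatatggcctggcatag
Neurod6: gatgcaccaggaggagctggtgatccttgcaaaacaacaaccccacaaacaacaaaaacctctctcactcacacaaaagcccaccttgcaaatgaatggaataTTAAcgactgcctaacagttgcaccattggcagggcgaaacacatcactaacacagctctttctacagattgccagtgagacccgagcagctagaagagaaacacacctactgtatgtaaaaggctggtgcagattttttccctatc

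The Neurod1 stretch held 4 GGGCGG motifs and no TTAA, at 67.6% GC. The Neurod2 stretch held 2 GGGCGG motifs and 1 TTAA, 153 bases before the start, and none of the 47 tables had an insertion in it. The Neurod6 stretch held no GGGCGG and 1 TTAA, 147 bases before the start, and took 92 insertions in 30 tables. These included 23 insertions over 6 of 6 Syn1Cre animals, 20 over 2 of 2 C57bl6J animals, 2 in 1 SP1_P28 animal and 0 in SP1_P10 and BrokenHeart, whose tables are too shallow to show a lower level at a single site. Of 17274 promoter stretches of the same length, 43.2% held GGGCGG on either strand and 46.2% held TTAA. The E-box letters CANNTG were found 1, 3 and 2 times in these 3 stretches, with no overlap with the other motifs, and in 62.7% of all. The RefSeq table used had an entry for 4 of the 7 members, the other being Neurog2, whose window lies inside its annotated span and is not printed. A match is a description of letters and not of a bound site.

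In Syn1Cre, Neurod6 and Bhlhe22 were the most densely hit members per kb of locus, while in several groups, among them Syn1CreNeg, SP1_P28 and SP1_P10, Tcf4 was, at 12.4, 9.05 and 8.76 IPM per kb. In Syn1Cre the mean level per kb was 13 IPM for Neurod6, 12.8 for Bhlhe22, 9.73 for Tcf4, 6.56 for Neurod2, 5.68 for Neurod1, 2.37 for Bhlhe40 and 0.212 for Neurog2. Among all loci these densities lay at the percentiles 99.96, 99.96, 99.9, 99.9, 99.8, 98.6 and 38.1, so 6 of the 7 members were among the densest loci and Neurog2 was not. In total 2662 insertions fell in the Neurod1 locus, 2834 in Neurod2, 5653 in Neurod6, 78 in Neurog2, 5734 in Bhlhe22, 1443 in Bhlhe40 and 74150 in Tcf4. The Neurod2 locus overlaps that of Gm33099, and insertions there cannot be assigned to either gene alone. Frontflip_GFAPCreNeg animals had at most 2 insertions at each member other than Tcf4, and their levels are left out there.

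**Figure D1:**
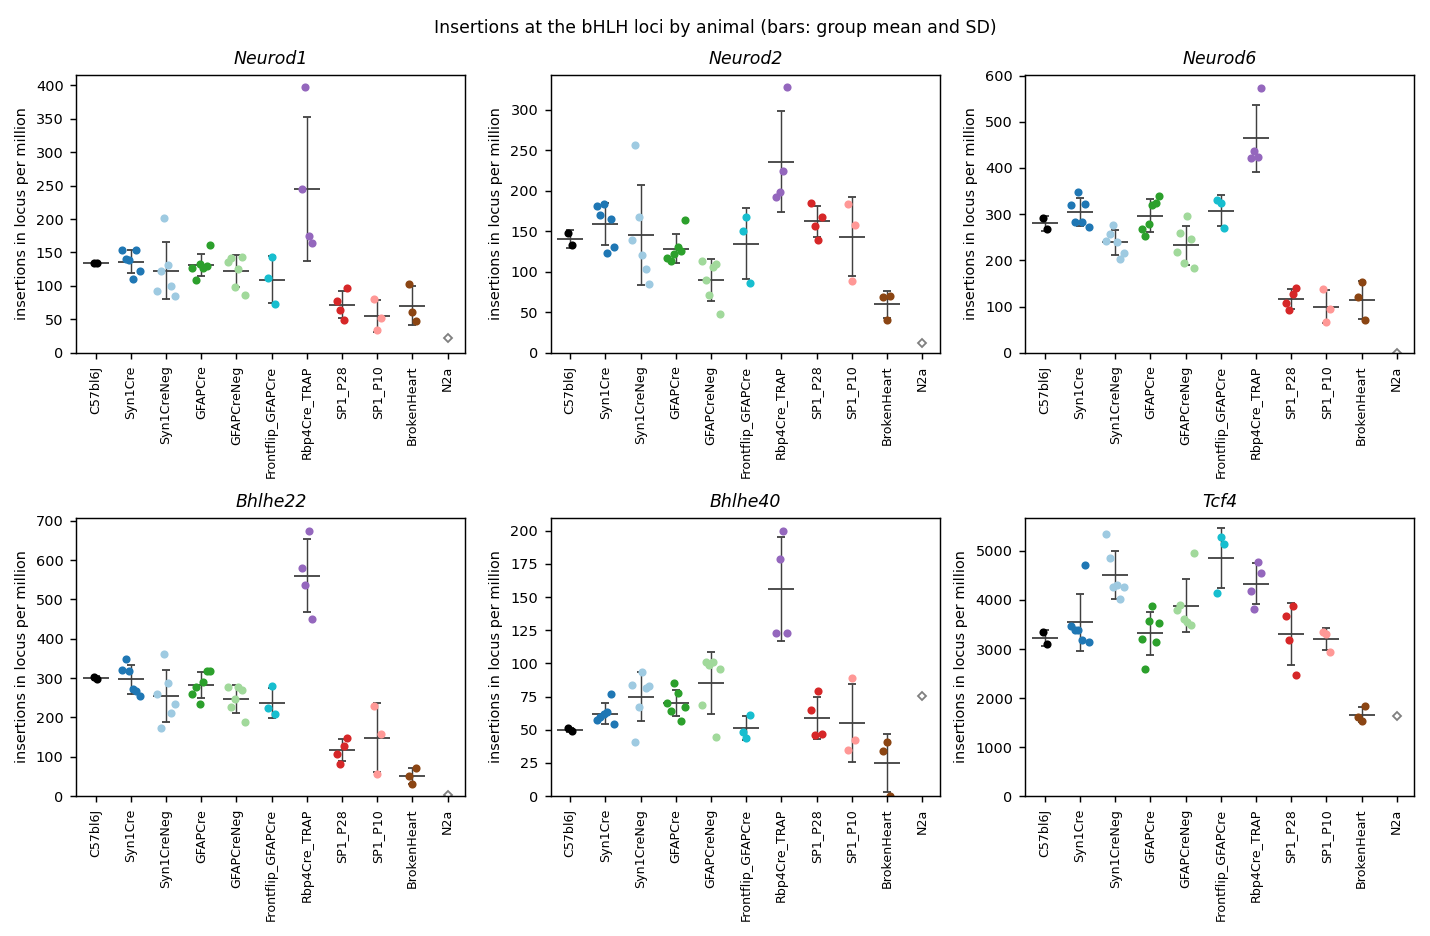
Insertions per 1000000 insertions of the table (IPM, vertical axis) at 6 member loci in each animal (points), by group, with bars for the group mean and SD and an open diamond for the single N2a table; Neurog2 and Frontflip_GFAPCreNeg are left out for their low counts. Rbp4Cre_TRAP has the highest group mean at Neurod1, Neurod2, Neurod6, Bhlhe22 and Bhlhe40, with single Syn1CreNeg animals within its range at Neurod1 and Neurod2. The SP1 groups stand low at Neurod1, Neurod6 and Bhlhe22.

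The Neurod genes had distinct profiles over the groups. Neurod6 (gene ID 11922, chr6:55677818-55681263 on the minus strand) was between 272 and 347 IPM in the 6 Syn1Cre animals (median 301) and between 252 and 339 in the 6 GFAPCre animals (median 299). It was 292 and 269 in C57bl6J, 331, 324 and 269 in Frontflip_GFAPCre, 203 to 277 in Syn1CreNeg (median 241) and 183 to 297 in GFAPCreNeg (median 232). The 4 Rbp4Cre_TRAP animals had 421, 437, 424 and 574, from 14 to 24 insertions each. All 4 lay above every animal of the next group. The SP1_P28 animals had 108, 91.8, 128 and 140, and the SP1_P10 animals 138, 66.8 and 94.4. BrokenHeart animals had 120, 153 and 70.6 from 7, 15 and 3 insertions. These 3 groups lay below every animal of the groups given before them and overlapped one another.

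Neurod1 (gene ID 18012, chr2:79452637-79456636 on the minus strand) was between 110 and 154 IPM in Syn1Cre (median 139), between 109 and 161 in GFAPCre (median 129) and 134 and 135 in C57bl6J. The Cre-negative animals spanned 85.0 to 202 in Syn1CreNeg (median 112) and 86.5 to 143 in GFAPCreNeg (median 131), and Frontflip_GFAPCre had 112, 143 and 73.4. Those 6 groups overlapped. The SP1_P28 animals had 77.6, 64.2, 48.6 and 97.0, the SP1_P10 animals 80.6, 33.4 and 52.4, and the Rbp4Cre_TRAP animals 246, 397, 175 and 164 from 4 to 20 insertions. BrokenHeart had 103, 61.1 and 47.0 from 6, 6 and 2 insertions. Rbp4Cre_TRAP had the highest mean, and SP1_P28, BrokenHeart and SP1_P10, the lowest with insertions, overlapped and lay within 1 SD of the next in order.

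Neurod2 (gene ID 18013, chr11:98325415-98329645 on the minus strand) was between 123 and 184 IPM in Syn1Cre (median 168) and between 114 and 164 in GFAPCre (median 123). It was 85.0 to 256 in Syn1CreNeg (median 130), 48.1 to 114 in GFAPCreNeg (median 97.9), 151, 168 and 85.7 in Frontflip_GFAPCre and 148 and 133 in C57bl6J. Unlike at the other Neurod loci, the SP1_P28 animals, at 185, 156, 140 and 168, lay within the range of Syn1Cre or just above it. SP1_P10 animals had 184, 89.1 and 157, Rbp4Cre_TRAP animals 193, 199, 225 and 328, and BrokenHeart animals 68.6, 40.7 and 70.6 from 3 or 4 insertions each. BrokenHeart was the lowest group with no overlap with C57bl6J.

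Neurog2 (gene ID 11924, chr3:127632733-127635636 on the plus strand) was nearly free of insertions. It had 0 to 8.35 IPM in Syn1Cre (median 5.22), 1.47 to 4.80 in GFAPCre (median 1.83) and 5.82 and 6.40 in C57bl6J, from 9 and 14 insertions. The remaining animal groups had at most 2 insertions in any animal, and the highest levels among them, 23 in 1 SP1_P10 animal and 19.9 in 1 Rbp4Cre_TRAP animal, came from 2 insertions and 1 insertion. No comparison of the locus passed the filter on low counts, and none was made.

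Bhlhe22 (gene ID 59058, chr3:18054325-18057514) was close to Neurod6 in its order of groups. It had 255 to 348 IPM in Syn1Cre (median 295), 233 to 319 in GFAPCre (median 284), 303 and 297 in C57bl6J, 174 to 361 in Syn1CreNeg (median 247) and 187 to 278 in GFAPCreNeg (median 257). The Rbp4Cre_TRAP animals had 579, 536, 674 and 451, above every other animal. The SP1_P28 animals had 108, 82.6, 128 and 149 and the SP1_P10 animals 230, 55.7 and 157. BrokenHeart animals had 51.5, 30.6 and 70.6 from 3 insertions each, and its mean was the lowest of the animal groups. Only 1 SP1_P10 animal came within its range.

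Bhlhe40 (gene ID 20893, chr6:108660629-108666925) was 54.7 to 76.7 IPM in Syn1Cre (median 60.6), 56.9 to 84.9 in GFAPCre (median 68.9), 41.0 to 93.5 in Syn1CreNeg (median 82.1), 44.8 to 101 in GFAPCreNeg (median 97.4) and 51.1 and 48.9 in C57bl6J. SP1_P28 animals had 64.7, 45.9, 79.0 and 46.7, and SP1_P10 animals 34.5, 89.1 and 42.0. The Rbp4Cre_TRAP animals had 123, 179, 200 and 123 from 3 to 9 insertions, above all animals of the next group. BrokenHeart animals had 34.3, 40.7 and 0.

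Tcf4 (gene ID 21413, chr18:69343429-69687967), whose locus spans 365 kb, was 3137 to 4716 IPM in Syn1Cre (median 3381), 2595 to 3868 in GFAPCre (median 3370), 4023 to 5340 in Syn1CreNeg (median 4285) and 3496 to 4965 in GFAPCreNeg (median 3710). C57bl6J had 3342 and 3104, SP1_P28 3682, 3175, 3882 and 2460, SP1_P10 3351, 3297 and 2937, and Rbp4Cre_TRAP 4192, 3814, 4767 and 4548. Frontflip_GFAPCre had 4145, 5285 and 5140, and Frontflip_GFAPCreNeg 5416, 8971 and 6002 from 52, 21 and 34 insertions. BrokenHeart had 1613, 1538 and 1835 from 94, 151 and 78 insertions. Apart from Frontflip_GFAPCreNeg, the means of the SRT groups lay between 3195 and 4857, a narrower relative range than at any other member. BrokenHeart was lowest here too, with no animal overlapping another animal group's.

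Group means showed how members went together, as a description over 10 animal groups that share tables and depth. The correlation of log2 group means was 0.955 between Neurod1 and Neurod6, 0.879 between Neurod6 and Bhlhe22 and 0.494 between Neurod1 and Neurod2. Among the 15686 loci searched for Neurod1, the profile most like it was that of Fezf2 (r = 0.990), which specifies deep-layer projection neurons, followed by Sstr4 (0.983) and Cnr1 (0.975). For Bhlhe22 it was Egr3 (0.980), an immediate early gene. Neurod6 was most like Iqcj (0.979), Neurod2 like Acte1 (0.957), Bhlhe40 like Bmerb1 (0.956) and Neurog2, from few insertions, like Cacng1 (0.963).

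The comparison of Syn1Cre with GFAPCre asked whether the lines used for neurons and for astrocytes differed at these loci. None of the 6 members tested passed, against 2.15% of all 11553 loci. In edgeR's quasi-likelihood test with Benjamini-Hochberg adjustment over all loci, the log2 fold changes lay between -0.24 (SE 0.12, adjusted p = 0.323) at Bhlhe40 and 0.24 (SE 0.12, adjusted p = 0.293) at Neurod2. With Syn1Cre animals 1 to 3 alone, Neurod2 was called at 0.35 (adjusted p = 0.049). At Neurod6 the difference was -0.02 with a 95% interval from -0.22 to 0.18, and at Neurod1 -0.01 with an interval from -0.23 to 0.21. Over the same animals 5 of 5 GABAergic marker loci tested were higher in Syn1Cre. The labels do not say whether the replicates came from separate litters, and the p-values measure the spread between these animals.

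Against their Cre-negative animals, the Cre lines had modest differences. Syn1Cre was higher than Syn1CreNeg at Neurod6 by 1.28-fold (log2 0.35, SE 0.12, adjusted p = 0.0232), lower at Tcf4 (log2 -0.36, SE 0.12, adjusted p = 0.0189) and lower at Bhlhe40 (log2 -0.44, SE 0.16, adjusted p = 0.0362). The call of 3 of 6 members sits beside 31% of all loci called in this comparison, 13.5% higher and 17.5% lower. Neurod1, Neurod2 and Bhlhe22 did not pass, at log2 0.19, 0.29 and 0.20 with adjusted p of 0.380, 0.200 and 0.272. GFAPCre was higher than GFAPCreNeg at Neurod2 (log2 0.45, SE 0.14, adjusted p = 0.0420), against 8.19% of loci called and 2.17% called higher. TMM-normalised levels did not overlap at Neurod2, as at 3.43% of loci, while the IPM levels met, at 114 in the lowest GFAPCre and the highest GFAPCreNeg animal. Neurod6 was at log2 0.34 in that comparison, with an adjusted p of 0.0662. The difference between the lines' Cre effects was tested by an interaction term, and none of the 6 members passed, against 0.607% of all loci.

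Most of these calls depended on single animals. The Neurod6 call was lost without Syn1CreNeg replicate 5 (log2 0.30) or replicate 6 (0.32), and the Tcf4 call without Syn1Cre replicate 3 (-0.31) or replicate 6 (-0.32). The Bhlhe40 call was lost in 7 of 12 such fits, without Syn1Cre replicate 1, 2, 3 or 6 or Syn1CreNeg replicate 4, 5 or 6, at -0.36 to -0.45. The Neurod2 call was lost in 6 of 12, without GFAPCre replicate 4, 5 or 6 or GFAPCreNeg replicate 2, 3 or 6, at 0.37 to 0.45. Counted at distinct positions, in which each position counts only 1 time per animal, Neurod6 turned to log2 -0.41 in Syn1Cre against Syn1CreNeg and Neurod2 to -0.08 in GFAPCre against GFAPCreNeg. Thinned to equal depth and counted at distinct positions, Neurod6 (0.19) and Tcf4 (-0.09) were not called in the former and Neurod2 (0.52) was not called in the latter. Without the filter on low counts the 3 calls against Syn1CreNeg were lost, at adjusted p of 0.088 (Neurod6), 0.051 (Bhlhe40) and 0.050 (Tcf4), and DESeq2 lost Bhlhe40 (-0.41, adjusted p = 0.087) and Neurod2 (0.46, adjusted p = 0.062). The Cre-negative groups were shallower than the Cre groups, and the part of depth in these differences was not tested. Animals 1 to 3 and 4 to 6 of Syn1Cre and Syn1CreNeg are laid out differently in the labels. The Tcf4 difference was log2 -0.52 within animals 1 to 3, still called, and -0.14 within animals 4 to 6, not called, and Neurod6 was at 0.27, not called, and 0.44, called. Bhlhe40 was called in neither, at -0.14 (adjusted p = 0.85) and -0.41 (adjusted p = 0.11), nor with the layout as a block (-0.39, adjusted p = 0.0504). Within the GFAPCre and GFAPCreNeg animals that share a pool, Neurod2 was at log2 0.64 (adjusted p = 0.061) and Neurod6 at 0.56 (adjusted p = 0.0427).

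The Cre-negative groups were set against each other, and C57bl6J against the Cre lines. None of the 6 members passed between Syn1CreNeg and GFAPCreNeg, where 0.0426% of all loci did, and the largest differences were log2 0.36 at Neurod2 (95% interval from 0.00 to 0.71) and 0.19 at Tcf4. Tcf4 was called there without GFAPCreNeg replicate 6 (0.26, adjusted p = 0.023). C57bl6J, given Cre-independent viruses, also passed at no member against Syn1Cre, with 0.81% of loci called, or against GFAPCre, with 12.5% called. The interval for C57bl6J minus Syn1Cre ran from -0.24 to 0.29 at Neurod6 and from -0.30 to 0.29 at Tcf4. Against GFAPCre, Bhlhe40 was at -0.38 (interval -0.68 to -0.09, adjusted p = 0.0925), and it was called without GFAPCre replicate 2 (-0.43, adjusted p = 0.044).

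**Figure D2:**
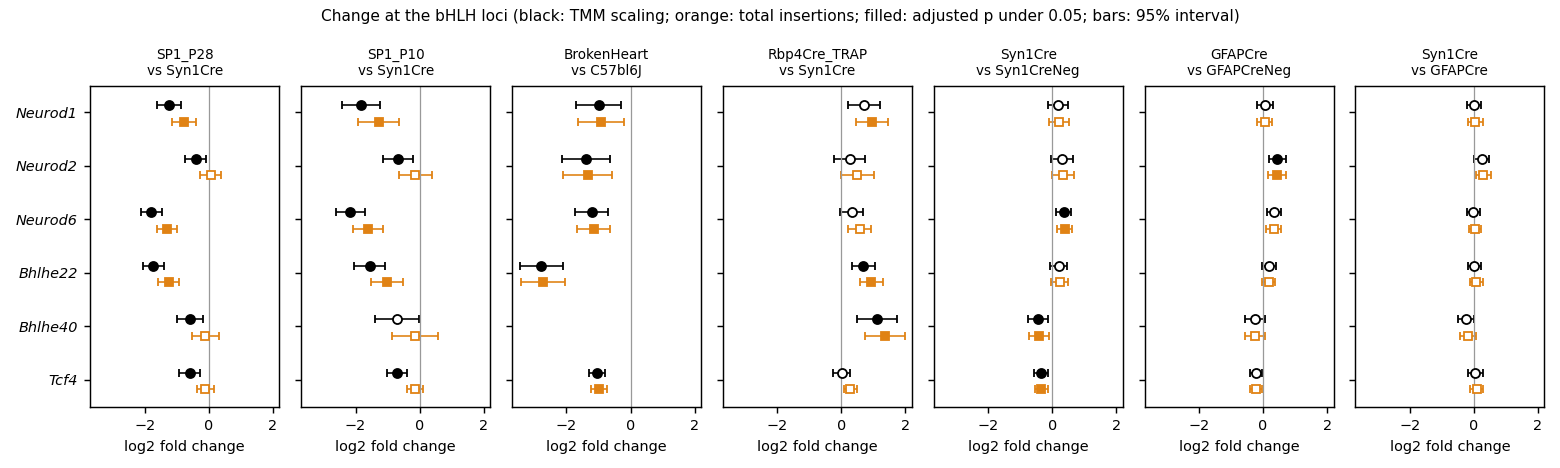
Log2 fold change with its 95% interval (horizontal axis) for each member tested (rows) in 7 comparisons (panels), with TMM scaling in black and scaling by table totals in orange; filled points passed an adjusted p of 0.05 over all loci. The SP1 panels hold the large negative changes at Neurod1, Neurod6 and Bhlhe22 under both scalings, and the BrokenHeart panel has all its members below 0.

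SP1 animals had fewer insertions than Syn1Cre animals at Neurod1, Neurod6 and Bhlhe22. At postnatal day 28 the fall was 3.46-fold at Neurod6 (log2 -1.79, SE 0.17, adjusted p = 3.6e-09), 3.32-fold at Bhlhe22 (log2 -1.73, SE 0.17, adjusted p = 8.2e-09) and 2.37-fold at Neurod1 (log2 -1.25, SE 0.19, adjusted p = 5.7e-06). Smaller falls passed at Tcf4 (log2 -0.60, adjusted p = 0.00355), Bhlhe40 (-0.59, adjusted p = 0.0214) and Neurod2 (-0.41, adjusted p = 0.0367). All 6 members tested were called lower, in a comparison that called 51.5% of all loci, 26.2% higher and 25.3% lower, and 4 of 6 had no overlap in normalised level between the groups, as did 39.3% of all loci. At postnatal day 10, 5 of 6 were called lower, beside 40.8% of loci called, 19.6% higher and 21.2% lower, and the same 5 had no overlap, as did 47.1% of loci. In IPM the groups did overlap at Tcf4, with 2460 to 3882 at day 28 and 2937 to 3351 at day 10 against 3137 to 4716 in Syn1Cre. They also overlapped in IPM at Neurod2 at day 10, with 89.1 to 184 against 123 to 184. The fall at day 10 was 4.47-fold at Neurod6 (log2 -2.16, SE 0.24, adjusted p = 5.3e-08), 3.56-fold at Neurod1 (-1.83, SE 0.30, adjusted p = 2.0e-05) and 2.94-fold at Bhlhe22 (-1.56, SE 0.25, adjusted p = 1.7e-05). Tcf4 (log2 -0.71, adjusted p = 0.000641) and Neurod2 (-0.68, adjusted p = 0.0267) also passed at day 10, and Bhlhe40 (-0.70, adjusted p = 0.109) did not. The Neurod2 call at day 28 was lost without SP1_P28 replicate 2, 3 or 4 or Syn1Cre replicate 1, 3 or 5 (-0.34 to -0.42), that at day 10 without SP1_P10 replicate 2 (-0.45) or 3 (-0.78), and the Bhlhe40 call without SP1_P28 replicate 2 (-0.53) or 4 (-0.38). Without SP1_P10 replicate 2, Bhlhe40 was called at day 10 (-1.23). Both comparisons use the same Syn1Cre animals.

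The size of these falls depended on the scaling, and the call did too for 3 members at day 28 and 2 at day 10. With table totals in place of TMM factors, day 28 gave log2 -1.31 at Neurod6 (adjusted p = 1.0e-07), -1.26 at Bhlhe22 (4.9e-07) and -0.77 at Neurod1 (0.0014), all still called. Neurod2 then stood at 0.06 (adjusted p = 0.777), Bhlhe40 at -0.11 (0.684) and Tcf4 at -0.11 (0.549). Day 10 gave -1.61 at Neurod6 (2.3e-06), -1.28 at Neurod1 (0.0019) and -1.01 at Bhlhe22 (0.0019) with totals, and -0.13 (0.727), -0.15 (0.803) and -0.15 (0.384) at Neurod2, Bhlhe40 and Tcf4, none of them called. The median log2 fold change of all loci was -0.06 at day 28 and -0.28 at day 10 with TMM, and 0.42 and 0.27 with totals. The split of all called loci moved from 3158 higher and 3055 lower to 5023 and 1227 at day 28, and from 2524 and 2726 to 3650 and 1147 at day 10. Neurod1, Neurod6 and Bhlhe22 lay below the median of all loci under either scaling.

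The SP1 animals differed from Syn1Cre in further measures. The summed glutamatergic marker level was 514 to 680 IPM in SP1_P28 and 490 to 564 in SP1_P10 against 1143 to 1545 in Syn1Cre, and 4 of 5 such loci at day 28 were called lower, with Slc17a7 higher. The GABAergic markers summed to 767 to 991 at day 28 and 1175 to 1542 at day 10, against 496 to 652. The SP1 tables were shallower, and the number of insertions per distinct position at Neurod6 was 1.19 to 1.98 at day 28 and 1 to 1.2 at day 10 against 2.42 to 4.65 in Syn1Cre. Fewer cells of a type and fewer insertions per cell cannot be told apart in these bulk samples. Counted at distinct positions at full depth, Bhlhe22 was still called at day 28 (log2 -0.76, adjusted p = 0.0011), and Neurod6 (-0.43, adjusted p = 0.089) and Neurod1 (-0.14, adjusted p = 0.64) were not. Neurod2 and Tcf4 then turned to 0.41 and 0.18, uncalled, and at day 10 none of the 6 was called, with Neurod1 at -0.78, Bhlhe22 at -0.61, Neurod6 at -0.56, Neurod2 at 0.66 and Tcf4 at 0.34. With every animal thinned to 108945 insertions and counted at distinct positions, an alternative chosen after seeing the data, Neurod6 (log2 -1.24) and Bhlhe22 (-1.34) were still called at day 28 and Neurod1 was not (-0.59, adjusted p = 0.14). Thinned to 86829 insertions at day 10, Neurod6 (-1.36) was still called and Bhlhe22 (-0.65, adjusted p = 0.078) was not. In gene bodies without flanks Tcf4 was not called at day 28 (-0.17) or day 10 (-0.29), nor was Bhlhe40 at day 28 (-0.07) or Neurod2 at day 10 (-0.91). Without the filter on low counts Neurod2 was not called at day 28 (-0.39, adjusted p = 0.078). The part of cell makeup in these falls was not tested.

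With TMM the fitted falls were larger close to the genes, and with table totals this did not hold at day 28 for 3 of the 4 members. Within 1 kb of either gene end, day 28 gave a fall of 7.01-fold at Neurod6 (log2 -2.81, adjusted p = 4.8e-14), 6.72-fold at Bhlhe22 (-2.75, adjusted p = 2.2e-14), 6.65-fold at Neurod1 (-2.73, adjusted p = 9.6e-13) and 3.31-fold at Bhlhe40 (-1.73, adjusted p = 7.8e-06). All 4 members tested there were called, against 64% of all gene ends called and 31% called lower. At day 10 the 5 members tested stood at log2 -4.47 (Neurod1), -3.87 (Neurod6), -3.59 (Bhlhe22), -2.70 (Bhlhe40) and -2.30 (Neurod2, adjusted p = 0.00234), against 60.4% of gene ends called and 32.2% called lower. Whole loci in SP1_P10 animals held only 3 to 7 insertions each at Neurod1 and 6 to 12 at Neurod6. They held 5 to 20 at Bhlhe22 and 8 to 16 at Neurod2. Gene ends are a part of the locus, so the day 10 sizes there rest on few insertions and are uncertain. At gene ends the normalised SP1_P10 means were 4.27 (Neurod1), 4.34 (Neurod2) and 4.14 (Bhlhe40), against 100, 21.8 and 28.4 in Syn1Cre. These members passed the filter on low counts through Syn1Cre, where they are high, so the filter itself favoured a lower value in SP1_P10. Gene ends as a whole took a larger share of insertions in SP1 animals. With table totals the median log2 fold change of all gene ends was 1.75 at day 28 and 1.99 at day 10, and the members then stood at -1.11 (Neurod1), -1.23 (Neurod6), -1.10 (Bhlhe22) and -0.06 (Bhlhe40) at day 28, the last not called. At day 10 with totals they stood at -2.43, -1.79, -1.50 and -0.65, with Neurod2 at -0.24, and Bhlhe40 and Neurod2 were not called. On simulated data the day 10 model of gene ends recovered 11% of changed gene ends and 18.5% of its calls were false, against 63.5% and 5.22% at day 28. At distinct positions Neurod1, Neurod6 and Bhlhe22 were still called at gene ends, with log2 -1.16, -1.34 and -1.43 at day 28 and -3.32, -2.51 and -2.59 at day 10. The difference between gene ends and whole loci was not itself tested. Between SP1_P28 and SP1_P10 none of the 4 members tested was called, against 11.2% of loci. Their difference at Neurod6, log2 0.45, had an interval from -0.16 to 1.05.

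Along the loci the SP1 falls were uneven. Distances are from the start in the direction of the gene for the Neurod genes and from the lower coordinate for the other members. At Neurod6 the steps from -2 to 0 kb and 0 to 2 kb held 83.7 and 94.2 IPM in Syn1Cre and 31.6 and 24.1 in SP1_P28. At Bhlhe22 the step from 2 to 4 kb held 87.9 in Syn1Cre and 23.6 in SP1_P28, while that from -2 to 0 kb held 63.6 and 47.7. At Neurod2 the step from -10 to -8 kb went the other way, with 16.3 in Syn1Cre, 43.9 in SP1_P28 and 32.4 in SP1_P10, and that from -4 to -2 kb held 35.2 in Syn1Cre and 15 in SP1_P28. At Bhlhe40 the step from -2 to 0 kb held 4.74 in Syn1Cre, 12.3 in SP1_P28 and 14.5 in SP1_P10. The steps were not tested. The totals at Neurod2 and Bhlhe40 join steps with lower and steps with higher values in the SP1 animals.

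**Figure D3:**
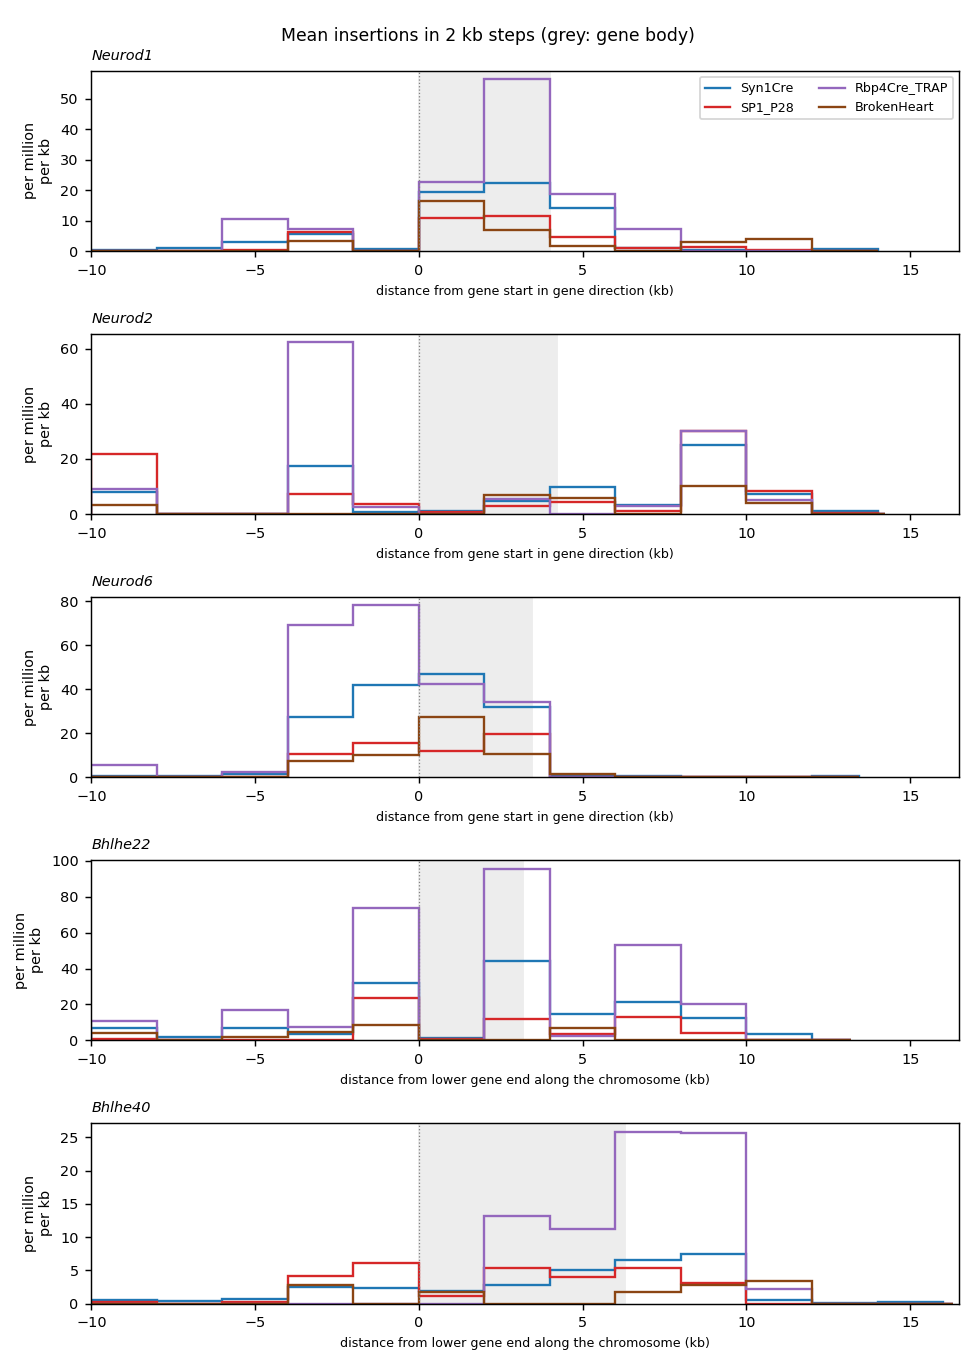
Mean IPM per kb (vertical axis) in 2 kb steps along the 5 shorter loci (horizontal axis, kb from the start or lower end; grey marks the gene body) in Syn1Cre, SP1_P28, Rbp4Cre_TRAP and BrokenHeart. Neurod6 has its insertions on both sides of the start, Neurod2 has separate peaks away from its body, and SP1_P28 is above Syn1Cre at the far upstream step of Neurod2.

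Insertions were placed differently in each member. In Syn1Cre 61.0% of the Neurod1 insertions lay in the gene body, 15.6% upstream and 23.4% downstream. At Neurod2 8.33% lay in the body, 33.0% upstream and 58.7% downstream, with 50.3 IPM in the step from 8 to 10 kb. SP1_P28 had 65.2% of its Neurod1 insertions in the body, and SP1_P10 26.7%, which is 4 of 15 insertions. Rbp4Cre_TRAP had 65.8% of its Neurod2 insertions upstream, where the step from -4 to -2 kb held 124 IPM against 35.2 in Syn1Cre.

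The same positions recurred between animals. Of the 121 distinct positions hit at Neurod1, 63 at Neurod2, 124 at Neurod6, 173 at Bhlhe22, 103 at Bhlhe40 and 2128 at Tcf4, those found in at least 23 of the 46 animals held 62.0%, 67.1%, 75.8%, 65.3%, 50.3% and 71.3% of the insertions. Neurog2 had 34 positions and none in 23 animals. At Neurod6 the positions chr6 55679505, 55682217 and 55684447 were each hit in 34 animals. At Neurod2 the most shared position, chr11 98320494, was hit in 38 animals, with a mean of 11.7 IPM in Syn1Cre and 28.3 in SP1_P28. At Neurod1 chr2 79452846 was hit in 36 animals, with means of 7.03 in Syn1Cre, 35.8 in Rbp4Cre_TRAP and 0 in SP1_P10.

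Tcf4 insertions gathered in parts of its long body. They are described by 4 stretches, at 0 to 20, 40 to 100, 150 to 190 and 220 to 260 kb from the lower end of the gene, chosen after the values were seen. These made up 160 kb, or 43.9% of the locus, and held 83.4% of the Tcf4 insertions in Syn1Cre, 88.0% in Rbp4Cre_TRAP, 86.0% in SP1_P28, 86.6% in SP1_P10, 81.7% in C57bl6J, 73.7% in BrokenHeart and 81.9% in N2a. The stretch from 220 to 260 kb alone held 38.6% in Syn1Cre, 43.7% in GFAPCre, 49.2% in Syn1CreNeg, 50.5% in Frontflip_GFAPCre and 34.5% in C57bl6J. The stretch from 40 to 100 kb held 15% in Syn1Cre, 16.4% in C57bl6J, 21.5% in SP1_P10 and 9.03% in Syn1CreNeg. These shares were pooled over animals and not tested. The position chr18 69520148 was hit in 43 animals and in N2a not at all.

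**Figure D4:**
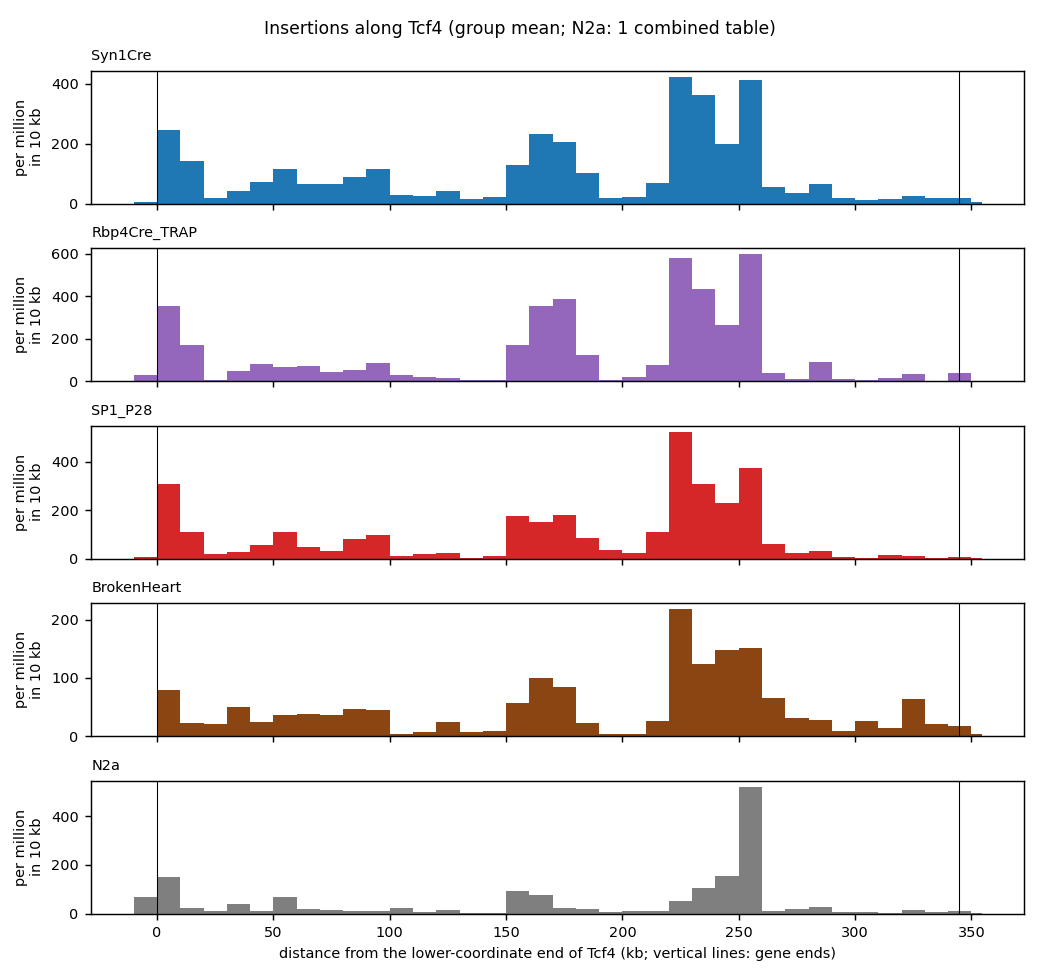
Mean IPM per 10 kb step (vertical axis) along the Tcf4 locus (horizontal axis, kb from the lower end of the gene) in Syn1Cre, Rbp4Cre_TRAP, SP1_P28, BrokenHeart and N2a. All of them have their main peak in the stretch from 220 to 260 kb, which held 38.6% of the Syn1Cre and 50.6% of the N2a insertions at Tcf4.

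Rbp4Cre_TRAP had the highest group means at 5 members, but few of these differences passed with TMM. Against Syn1Cre, Bhlhe22 was 1.61-fold higher (log2 0.69, SE 0.18, adjusted p = 0.0372) and Bhlhe40 2.16-fold higher (log2 1.11, SE 0.31, adjusted p = 0.0499), which is 2 of 6 members beside 2.09% of loci called and 0.196% called higher. Neurod1 (log2 0.70, adjusted p = 0.144), Neurod6 (0.32, adjusted p = 0.423), Neurod2 (0.26, adjusted p = 0.676) and Tcf4 (0.01, adjusted p = 0.988) did not pass. With table totals the changes were 0.95 at Neurod1 (adjusted p = 0.048), 0.57 at Neurod6, 0.50 at Neurod2, 0.94 at Bhlhe22, 1.36 at Bhlhe40 and 0.29 at Tcf4, and the median of all loci moved from -0.31 to -0.07. Against GFAPCre, Bhlhe22 was 1.67-fold higher (log2 0.74, SE 0.18, adjusted p = 0.00441), beside 6.25% of loci called and 0.712% called higher, and Neurod1 (0.75, adjusted p = 0.0613) and Bhlhe40 (0.91, adjusted p = 0.0664) did not pass. DESeq2 called both there, at 0.84 (adjusted p = 0.031) and 1.01 (adjusted p = 0.037). With table totals 5 of 6 members were called higher against GFAPCre, beside 1.63% of all loci. Against Syn1Cre 3 of 6 were, beside 0.514%. The values at Bhlhe40 rest on 3 to 9 insertions per animal, and its call against Syn1Cre was lost without any 1 of the 4 Rbp4Cre_TRAP animals or without Syn1Cre replicate 6 (0.92 to 1.16). The call of Bhlhe22 was lost against Syn1Cre without Rbp4Cre_TRAP replicate 1, 2 or 3 (0.54 to 0.62) and against GFAPCre without replicate 1 (0.62) or 3 (0.61). Without the filter on low counts neither locus was called, at 0.48 (Bhlhe22) and 0.90 (Bhlhe40) against Syn1Cre and 0.50 (Bhlhe22) against GFAPCre. In gene bodies alone Bhlhe22 (0.91 and 0.79) and, against Syn1Cre, Bhlhe40 (1.19) were not called either. At distinct positions all 6 members were called higher in both comparisons, between log2 0.96 at Tcf4 and 1.56 at Neurod6 against Syn1Cre, where Rbp4Cre_TRAP tables had 1 to 1.27 insertions per distinct Neurod6 position and Syn1Cre 2.42 to 4.65. Thinned to 24402 insertions at distinct positions, Bhlhe22 was at 0.86 against Syn1Cre (adjusted p = 0.054), and Bhlhe22 (0.98) and Tcf4 (0.57) were called against GFAPCre. The glutamatergic markers summed to 1797 to 2417 IPM in these animals, above every other group, and the GABAergic markers to 0 to 81.9, with Gad1, Slc32a1, Dlx2 and Lhx6 at 0. Their part in the members' levels was not tested.

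Tcf4 was the member called different between Frontflip_GFAPCre and GFAPCre. It was 1.5-fold higher than in GFAPCre (log2 0.59, SE 0.12, adjusted p = 0.00581), with no overlap in normalised level, where 1.64% of loci were called, 1.39% higher, and 12% did not overlap, and the other 5 members did not pass. The call was lost without Frontflip_GFAPCre replicate 2 (0.54) or replicate 3 (0.55), and after thinning to distinct positions (0.28, adjusted p = 0.083). The astrocyte markers summed to 1528 to 2239 in these animals and 705 to 1444 in GFAPCre, which was not tested as a source of the Tcf4 difference. No pool held Frontflip_GFAPCre together with GFAPCre animals. Insertions with 1 read made up 55.8% to 63.2% of the Frontflip_GFAPCre tables and 5.65% to 16.6% of the GFAPCre tables. The construct, the pool and the depth of reading differ together here and cannot be told apart.

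BrokenHeart was set beside C57bl6J to compare reading from DNA with reading from RNA. All 5 members tested were lower in BrokenHeart, with no overlap between the animals, in a comparison that called 39.9% of 1879 loci, 18.7% higher and 21.1% lower, and in which 56.6% of loci did not overlap. Neurod1, Neurod2 and Bhlhe22 had at most 6, 4 and 3 insertions in any BrokenHeart animal. They passed the filter on low counts through the C57bl6J animals, where they are high, so the filter itself favoured a lower value in BrokenHeart. The fall was 6.90-fold at Bhlhe22 (log2 -2.79, SE 0.34, adjusted p = 5.8e-08), 2.63-fold at Neurod2 (-1.40, SE 0.38, adjusted p = 0.00382), 2.32-fold at Neurod6 (-1.22, SE 0.26, adjusted p = 0.000391), 2.06-fold at Tcf4 (-1.04, SE 0.12, adjusted p = 3.5e-08) and 1.99-fold at Neurod1 (-1.0, SE 0.36, adjusted p = 0.0245). Bhlhe40 had 2, 4 and 0 insertions and was not tested. The Neurod1 call was lost without BrokenHeart replicate 2 (-1.26) or either C57bl6J animal (-1.09 and -1.05), and the Neurod2 call without C57bl6J replicate 1 (-1.40). DESeq2 also missed Neurod1 (-1.0, adjusted p = 0.054), and Neurod6 was not called in its gene body alone (-0.79, adjusted p = 0.094). C57bl6J tables held 3.90 to 4.5 insertions per distinct Tcf4 position and 5.13 to 6.00 per Neurod6 position, and BrokenHeart 1.11 to 1.16 and 1 to 1.17. Thinned to 42509 insertions and counted at distinct positions, Bhlhe22 (log2 -2.13) and Tcf4 (-0.51) were still called. Without thinning, Tcf4 turned to 0.22 at distinct positions. The glutamatergic markers summed to 583 to 855 IPM in BrokenHeart and 1385 to 1530 in C57bl6J, the GABAergic markers to 153 to 326 and 432 to 464, and the astrocyte markers to 479 to 772 and 419 to 454. Their part in the falls was not tested. The assay, the depth and the animals differ together between these groups and cannot be told apart.

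**Figure D5:**
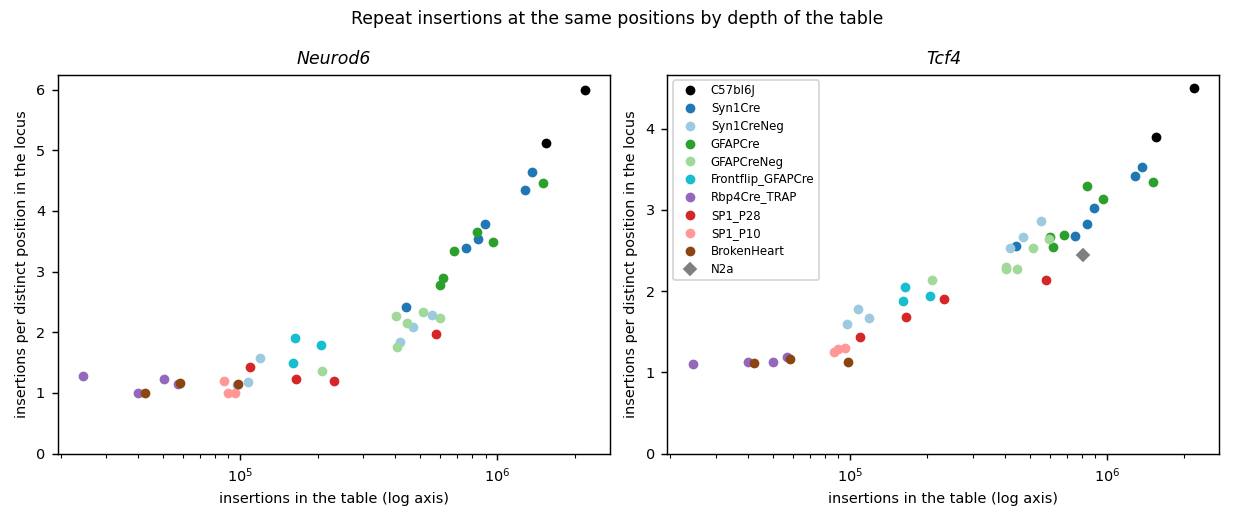
Insertions per distinct position (vertical axis) at Neurod6 and Tcf4 against the insertions of the whole table (horizontal axis, log scale), 1 point per table, coloured by group. Tables with more insertions have more per position, from about 1 in Rbp4Cre_TRAP and BrokenHeart to between 5.13 and 6.00 at Neurod6 in C57bl6J.

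N2a differed from C57bl6J cortex in opposite ways over the members. N2a is 1 combined table, so ratios against the C57bl6J mean have no replicate check, and their 95% intervals cover counting error only. Neurod6 had 0 of 806653 insertions, which at a floor of 3 counts allows up to 3.72 IPM, and C57bl6J was at least 75.4-fold higher than that floor. With the upper limit of the exact 95% interval, 4.57 IPM, the factor is 61.3. Bhlhe22 was 121-fold higher in C57bl6J (interval 33.5 to 1000, from 2 insertions in N2a), Neurod2 11.3-fold higher (6.17 to 23.7, from 10), Neurod1 6.02-fold higher (3.81 to 10.2, from 18) and Tcf4 1.96-fold higher (1.86 to 2.08, from 1323). Bhlhe40 had 61 insertions, or 75.6 IPM, in N2a, and the ratio was 0.661 (0.515 to 0.865), so it was higher in the cell line than in C57bl6J. It was above some of the other cortex groups but not most. N2a lay within the range of Syn1Cre (54.7 to 76.7), GFAPCre (56.9 to 84.9), Syn1CreNeg (41.0 to 93.5) and GFAPCreNeg (44.8 to 101). It also lay within SP1_P28 (45.9 to 79.0) and SP1_P10 (34.5 to 89.1). Every animal of Frontflip_GFAPCre (43.6 to 61.2) and BrokenHeart (0 to 40.7) lay below it. Neurog2 had 2 insertions in N2a and a ratio of 2.47 (0.682 to 20.4). All 10 Neurod2 insertions of N2a lay upstream of the gene. The neuroblastoma marker loci summed to 775 IPM in N2a and at most 311 in any animal.

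Further bHLH genes had calls in both directions. A list of 29 further bHLH genes spans proneural factors, E proteins, Id inhibitors and Hes and Hey repressors. Of these, 18 were tested for SP1_P28 against Syn1Cre, and 7 were called higher and 4 lower, beside 26.2% and 25.3% of all loci. Their median log2 fold change was 0.33, against -0.92 for the members and -0.06 for all loci. The risers included Id3 (1.78), an inhibitor of bHLH dimers, and Tcf3 (1.67), an E protein. Those lower were Hes1 (-0.89), Tcf12 (-0.85), Npas4 (-0.84) and Atoh7 (-0.80). At day 10, 4 were higher and 3 lower of 19 tested, beside 19.6% and 21.2% of all loci. The median was 0.16 against -1.13 for the members. With table totals 10 were higher and 1 lower at day 28, beside 41.7% and 10.2% of all loci, and 5 and 0 at day 10, beside 28.4% and 8.92%. Id3 (2.27) and Tcf3 (2.15) were then still called at day 28, as was Tcf12 (-0.36), and Hes1, Npas4 and Atoh7 were not. In Syn1Cre against Syn1CreNeg, 15 were tested and 8 were lower, beside 17.5% of all loci. These included the oligodendrocyte lineage genes Olig2 (-2.10) and Olig1 (-2.0) and also Id3 (-1.56), Npas3 (-1.13), Bhlhe41 (-1.01) and Id4 (-0.97). Of 16 tested, Id3 alone was called in Syn1Cre against GFAPCre (-1.16), beside 2.15% of all loci. Of 16 tested in Rbp4Cre_TRAP against Syn1Cre, Npas3 alone was called, beside 2.09% of all loci. For BrokenHeart 3 were tested and Id2 (1.02) was higher, beside 18.7% of all loci called higher.

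The genes of the cortical glutamatergic programme, in which the Neurod factors act, were counted in the same way. Of 11 tested for SP1_P28, 7 were lower and 2 higher with TMM, beside 25.3% and 26.2% of all loci, with a median of -0.54. With table totals 3 were lower and 3 higher, with a median of -0.05 against 0.42 for all loci. Tbr1 (-1.66) and Fezf2 (-1.35), which specify classes of projection neuron, fell, and Slc17a7 (1.77), the vesicular glutamate transporter, and Pax6 (0.79), a progenitor factor, were higher. These 4 were called in the same direction with totals, at -1.18, -0.88, 2.24 and 1.28. At day 10, 6 of 11 were lower and Cux2 was higher with TMM, beside 21.2% and 19.6% of all loci, and 3 were lower and 2 higher with totals. In BrokenHeart 6 of 7 tested were lower under either scaling, beside 21.1% of loci with TMM and 18.8% with totals, with Tbr1 at -1.84 and Cux2 at -1.49. The filter on low counts can admit a locus through the C57bl6J animals alone, which favours a lower value in BrokenHeart, as at the members. In Syn1Cre against Syn1CreNeg, 5 of 10 were higher beside 13.5% of loci, among them Cux2 (1.31), and Pax6 (-1.43) was lower. In Rbp4Cre_TRAP against Syn1Cre, Cux2 and Cux1, genes of upper-layer neurons, were lower, of 11 tested, beside 2.09% of all loci called. With totals 2 of the 11 were called higher and 1 lower, beside 0.514% and 0.692% of all loci. Of the pair only Cux1 was called with totals.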

How the data were processed

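Insertions were mapped in 46 animals and in N2a cells, and 194 GEO samples were combined by the authors into 47 deposited tables, 1 line per insertion with its count of reads, per the labels and the tables' values. The submitters' processing notes name mm10, Novoalign and Bowtie2, with versions not given in the sources used here. Coordinates are GRCm38, 1-based. BrokenHeart positions were moved by 1 base, after which 77.1% to 78.5% of them lay on SRT positions, against at most 0.70% at other offsets.

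Each line counted as 1 insertion, since a position can recur in several of the 10 pieces of a cortex. Insertions were counted in gene bodies with 10 kb on each side and, because the gene table gives no strand, within 1 kb of either gene end. Counts were tested between groups with edgeR 4.0.16 (R 4.3.3), its quasi-likelihood test, TMM factors, its filter on low counts and Benjamini-Hochberg adjustment over all loci, at 0.05, with the animal as replicate, fitted for each pair of groups apart. Fold changes are those of the fit. On simulated data with 200 loci changed, the models recovered between 21% (Rbp4Cre_TRAP against Syn1Cre) and 95.5% of the loci, 80.5% for SP1_P28 and 33.5% for SP1_P10, with 1.84% to 12.5% of calls false. At gene ends they recovered 63.5% at day 28 and 11% at day 10, with 5.22% and 18.5% false. Alternatives were table totals, DESeq2 1.42.0, no filter, distinct positions, gene bodies alone, a replicate block and leaving out each animal. Thinning to equal depth with counting at distinct positions was added after seeing the data. Poisson intervals are exact, at 95%, and cover counting error only.

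The 7 members were always named, with those genes of 2 lists that passed and the 3 loci most alike to each member by correlation over log2(group mean + 1). Some genes that this rule names are not reported here. Members and lists were chosen with earlier results of these data known. Python 3.11.15 was used with pandas 2.3.3, numpy 2.4.6, scipy 1.17.1 and matplotlib 3.10.9.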

Additional observations from a re-analysis of the deposited data

Results flagged for a closer look

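In 7 of 42 combinations of member and group tested, a single animal stood apart from the others of its group by its gap relative to the range, which chance gives in about 1 of 20. At Tcf4, Syn1Cre replicate 5 had 4716 insertions per 1000000 insertions of its table against 3137 to 3465 in the other 5, and GFAPCreNeg replicate 6 had 4965 against 3496 to 3890. At Neurod2, GFAPCre replicate 6 had 164 against 114 to 131. At Neurod6, Rbp4Cre_TRAP replicate 4 had 574, from 14 insertions, against 421 to 437. The other 3 were at Neurog2 and rest on few insertions: GFAPCre replicate 4 had 4.80 (4 insertions) against 1.47 to 2.07, SP1_P28 replicate 4 had 1.73 (1 insertion) against 0, and Rbp4Cre_TRAP replicate 2 had 19.9 (1 insertion) against 0.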

How the results depend on the processing

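Over 950 fits of a member that left out 1 animal, 898 kept the side of the threshold, 43 lost a call, 9 gained one and 0 reversed a call. Over 611 fits under other settings, 522 kept the side, 54 lost a call, 26 gained one and 9 reversed. The 9 were Neurod2 in SP1_P28 with table totals (log2 0.063) and, at distinct positions, Neurod6 in Syn1Cre against Syn1CreNeg (-0.41), Neurod2 in GFAPCre against GFAPCreNeg (-0.084), Neurod2 in SP1_P28 (0.41) and SP1_P10 (0.66), Tcf4 in SP1_P28 (0.18), SP1_P10 (0.34) and BrokenHeart (0.22), and, thinned to equal depth and counted at distinct positions, Tcf4 in SP1_P10 (0.18). The cause was not tested. Of 84 group levels, 32 moved by more than 1 SD when counted at distinct positions.

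Counts of called loci changed by over 1.5 times as follows. At distinct positions they were 134 for Syn1Cre against GFAPCre (248 before), 1769 and 471 for Syn1Cre and GFAPCre against their Cre-negative groups (2666 and 754), 3863 for SP1_P28 (6213), 212 for SP1_P28 against SP1_P10 (388), 592 for Rbp4Cre_TRAP against Syn1Cre (224), 305 for Frontflip_GFAPCre (173), 928 for C57bl6J against GFAPCre (1658), 8 between the Cre-negative groups (3), 31 for the interaction (64), and 100 and 190 for gene ends at day 28 and day 10 (2155 and 2128). Thinned to equal depth and counted at distinct positions, an alternative chosen after seeing the data that changes both at the same time, they were 108 for Syn1Cre against GFAPCre, 462 and 166 for Syn1Cre and GFAPCre against their Cre-negative groups, 900 for SP1_P28, 731 for SP1_P10 (5250), 47 between them, 143 for BrokenHeart (749), 44 and 90 for Rbp4Cre_TRAP against Syn1Cre and GFAPCre (649), 37 for Frontflip_GFAPCre, 38 and 387 for C57bl6J against Syn1Cre (117) and GFAPCre, and 0 between the Cre-negative groups. Without the filter they were 1250 for BrokenHeart, 778 and 1128 for Rbp4Cre_TRAP against Syn1Cre and GFAPCre, 307 for Frontflip_GFAPCre, 29 between the Cre-negative groups, 104 for the interaction and 3706 for gene ends at day 28. In gene bodies without flanks they were 2840 for SP1_P28, 2337 for SP1_P10, 196 between them, 128 and 394 for Rbp4Cre_TRAP, 89 for Frontflip_GFAPCre and 10 between the Cre-negative groups. DESeq2 gave 154 for SP1_P28 against SP1_P10, 101 and 373 for Rbp4Cre_TRAP, and 51 and 675 for C57bl6J against Syn1Cre and GFAPCre. Table totals gave 129 for Rbp4Cre_TRAP against Syn1Cre and 54 for C57bl6J against Syn1Cre. Within 5 kb of gene ends 4240 and 3961 were called. Syn1Cre animals 1 to 3 alone gave 1634 against GFAPCre, animals 1 to 3 of both groups 969 for Syn1Cre against Syn1CreNeg, and animals that share a pool 318 for GFAPCre and 168 for SP1_P28 against SP1_P10.

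Leaving out 1 animal gave 128 to 846 called loci for Syn1Cre against GFAPCre (846 without Syn1Cre replicate 5), 2054 to 3261 for Syn1Cre and 386 to 1120 for GFAPCre against their Cre-negative groups, 5622 to 6581 for SP1_P28, 4137 to 5508 for SP1_P10, 7 to 539 between them (7 without SP1_P10 replicate 3), 355 to 893 for BrokenHeart (355 without C57bl6J replicate 2), 89 to 472 and 428 to 720 for Rbp4Cre_TRAP against Syn1Cre and GFAPCre, 16 to 402 for Frontflip_GFAPCre (16 without its replicate 3), 2 to 250 and 486 to 2078 for C57bl6J against Syn1Cre and GFAPCre, 1 to 345 between the Cre-negative groups, 1793 to 2322 and 1714 to 2116 for gene ends, and 43 to 396 for the interaction. A lone C57bl6J animal is then assumed to vary like the other group.

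With a replicate block the counts were 349 for BrokenHeart, 118 for Rbp4Cre_TRAP against Syn1Cre, 285 for Frontflip_GFAPCre, 1067 for C57bl6J against Syn1Cre and 0 between the Cre-negative groups. The block lost the calls of Bhlhe40 (-0.36) in Syn1Cre against Syn1CreNeg, Neurod2 (0.45) in GFAPCre, Neurod2 (-0.42) in SP1_P28, Neurod1 (-0.87) in BrokenHeart and Bhlhe22 (0.62) and Bhlhe40 (1.17) in Rbp4Cre_TRAP against Syn1Cre. It gained Neurod1 (0.83) in Rbp4Cre_TRAP and Tcf4 (0.28) in C57bl6J, both against GFAPCre. Animals of the same number correlated between -0.22 and 0.17 in their deviations, so they share only a number.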
